A study of Mus musculus with 2 samples.

Results

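The genes described here are 10 genes of the cellular response to low oxygen: the hypoxia-inducible factor subunits Hif1a, Epas1 and Arnt, the regulators Egln1, Egln2, Egln3 and Vhl, and the target genes Ndrg1, Bnip3 and Pdk1. They were taken by the gene name printed in the array files, over non-control spots, which gave 10 of 37008 gene names and 19 of 56605 probes. Lymph node cells sorted as stroma were profiled on 2 one-color arrays, 1 from female mice whose nodes drained a 4T1 mammary tumor and 1 from female mice without a tumor. The tumor cells were placed under the skin at the mammary gland of C57BL/6 mice and the draining nodes were taken 2 weeks later. 4T1 cells are a murine mammary carcinoma line of BALB/c origin, so a response of the C57BL/6 hosts to the strain difference and one to the tumor itself cannot be told apart. Both samples were sorted as CD45-negative cells, CD45 being the leukocyte antigen encoded by Ptprc. The sources used here give neither the age of the mice nor the number of mice behind each array. With 1 array in each group no test was possible, no p-value is given, and genes are called by size alone, where the tumor-draining signal was 2-fold or more above or below the normal one.

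Hypoxia-inducible factors are pairs of an oxygen-controlled alpha subunit, encoded by Hif1a or Epas1, and a constitutive beta subunit, encoded by Arnt. In the presence of oxygen the prolyl hydroxylases encoded by the Egln genes mark the alpha subunit, and the Vhl protein then directs it to the proteasome. When oxygen is low the pair binds the core letters ACGTG or GCGTG near target genes. Control of the alpha subunits acts mostly on the protein, which arrays do not measure. In blood vessels Epas1 is known as an endothelial gene, and lymph node stroma holds both vessels and fibroblastic reticular cells.

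Promoters are shown for 4 genes that hypoxia-inducible factors are known to activate. These 4 genes were picked because their differences had both signs on the main scaling described below. There, Bnip3 (-0.54) and Egln1 (-0.43) were negative and Egln3 (0.66) and Pdk1 (0.92) positive, all within 2-fold. Scaled to the spike-in controls, all 4 were positive, at 0.28, 0.39, 1.48 and 1.74 in that order. The split in sign therefore depends on the scaling. Each promoter is the 250 bases before the gene's start, from RefSeq on GRCm38.p6, printed along the gene's strand. ACGTG or GCGTG on either strand is in capitals. The RefSeq table matched 8 of the 10 genes, all but Epas1 and Ndrg1.
Bnip3, minus strand, chr7:138909507-138909756: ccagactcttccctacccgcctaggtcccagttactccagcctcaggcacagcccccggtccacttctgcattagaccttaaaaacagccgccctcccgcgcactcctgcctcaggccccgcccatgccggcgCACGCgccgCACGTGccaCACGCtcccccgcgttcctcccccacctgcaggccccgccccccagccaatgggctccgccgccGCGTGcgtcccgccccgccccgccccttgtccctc
Pdk1, plus strand, chr2:71872974-71873223: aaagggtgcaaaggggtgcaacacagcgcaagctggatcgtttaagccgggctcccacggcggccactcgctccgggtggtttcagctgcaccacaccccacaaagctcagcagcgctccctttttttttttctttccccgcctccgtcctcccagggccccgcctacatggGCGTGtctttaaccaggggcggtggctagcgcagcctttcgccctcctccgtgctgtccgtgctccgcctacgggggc
Egln1, minus strand, chr8:124949255-124949504: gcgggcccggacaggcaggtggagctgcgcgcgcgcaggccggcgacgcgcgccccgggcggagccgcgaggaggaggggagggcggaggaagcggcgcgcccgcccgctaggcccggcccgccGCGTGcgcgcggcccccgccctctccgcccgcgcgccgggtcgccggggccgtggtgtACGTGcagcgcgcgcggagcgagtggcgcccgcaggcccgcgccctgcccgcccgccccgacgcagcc
Egln3, minus strand, chr12:54203875-54204124: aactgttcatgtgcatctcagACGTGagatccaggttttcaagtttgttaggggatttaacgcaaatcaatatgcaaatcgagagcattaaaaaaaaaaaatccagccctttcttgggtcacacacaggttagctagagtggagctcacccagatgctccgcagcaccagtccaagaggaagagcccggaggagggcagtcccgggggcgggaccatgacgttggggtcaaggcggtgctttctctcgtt
Bnip3 held 5 matches, of which the pair of ACGTG matches are one CACGTG palindrome read on both strands, at 107 and 108 bases before the start. Pdk1 held 1 match, a GCGTG at 78 bases before this start, and none before its second listed start. Egln1 held 1 of each motif, at 126 and 68 bases before the start, and Egln3 held a single ACGTG at 229 bases. Matches that run across the start were not counted. Over the 8 genes, 8 of 10 listed promoters held at least 1 match. Of those not printed, Egln2 held 4 and 1 matches before its 2 listed starts, Hif1a 3, Arnt 1 and Vhl 0. The same letters stood in 38.6% of all 32851 promoters in the table, ACGTG in 16.6% and GCGTG in 28.2%, and the 10 promoters ranged from 38.4% to 86.0% in GC content. GC content was not computed over all promoters, so the share of 8 of 10 is not matched for it. A match describes letters, not binding.

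All 19 probes were well above background on both arrays, and none was saturated. Values below are background-subtracted spot signals in linear units, followed for the 10 genes by the scanner software's own error for that spot, and differences are log2 of the tumor-draining signal over the normal signal after each array was divided by its 75th percentile. Each of the 19 probes was printed once per array, so the only other errors in the files are the spread between repeated spots of other probes (median SD of the log2 difference 0.050 over 297 probes) and the spread between probes of 1 gene (median SD 0.27 over 7599 genes). Neither covers differences between mice. On the tumor-draining array, 15.9% of the 22152 genes measured above background on the pair of arrays were lower by 2-fold or more and 11.1% were higher by as much, and the median difference was 0.12. The spike-in controls differed by a median of -0.82, and scaling to them therefore adds 0.82 to each difference. The sources used here do not say whether both samples received equal amounts of spike-in.

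Of the 10 genes, 2 were at least 2-fold lower, Epas1 and Ndrg1, none was at least 2-fold higher and 8 were within 2-fold. The 2 lower genes are 20% of the 10, against 15.9% of all genes, and 0 of 10 were higher, against 11.1% of all genes. The median of the 10 differences was -0.19, against 0.12 for all genes. Scaled to the spike-ins, 1 of the 10 was at least 2-fold lower (8.07% of all genes) and 4 were at least 2-fold higher (46.8% of all genes).

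**Figure D1:**
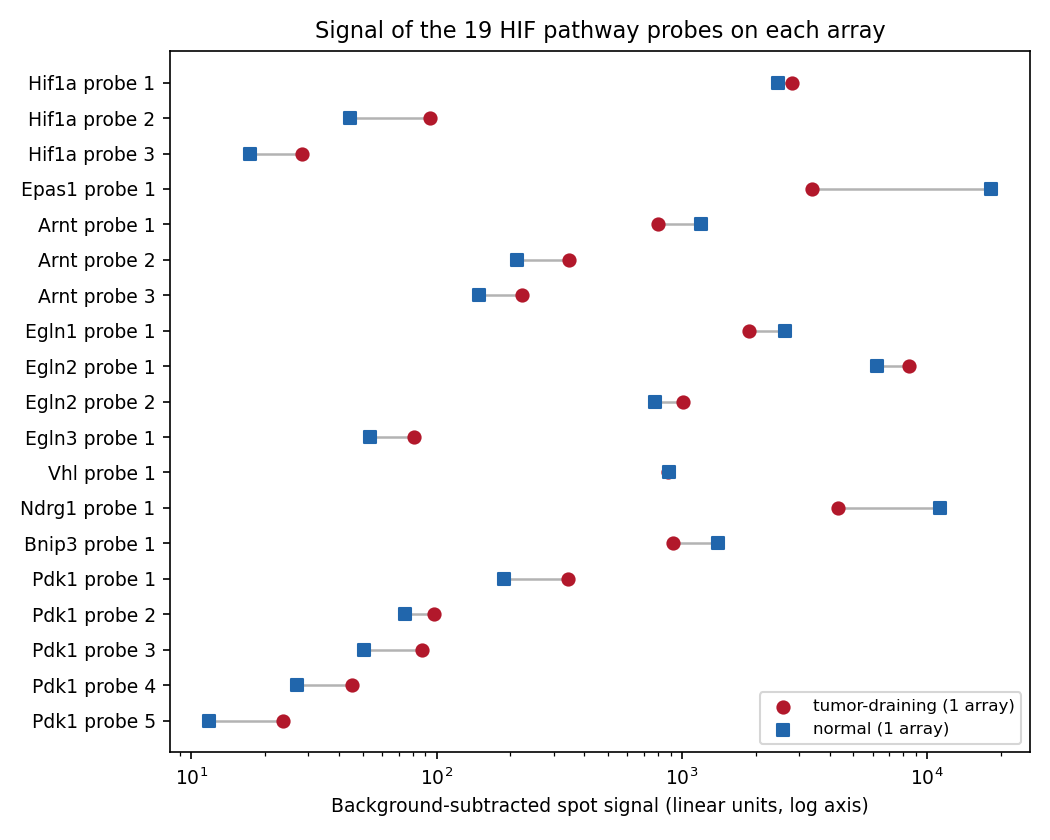
Background-subtracted signal of each of the 19 probes on a log axis, with the tumor-draining array as red circles and the normal array as blue squares, 1 array each, and probes of a gene numbered from brightest to dimmest. Epas1 and Ndrg1 have the widest gaps to the left, with 3385 and 4330 on the tumor-draining array against 18138 and 11280 on the normal array, and the 2 Vhl signals overlap.

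Among the factor subunits, Epas1 stood apart from Hif1a. Epas1, which encodes the alpha subunit of the second factor, had a signal of 3385 ± 339 on the tumor-draining array and 18138 ± 1814 on the normal array. This was a 5.13-fold lower signal (log2 difference -2.36), and 96.2% of all genes above background had a higher difference. Its single probe covers bases 87232615 to 87232674 of chromosome 17 (mm9, per the array files, which do not state exon or UTR). Epas1 was lower in all 11 settings tried, from -2.73 after loess normalization to -1.54 when scaled to the spike-ins. With 1 bright probe, averaging over probes and the filters on signal could only return its main value of -2.36.

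Hif1a, which encodes the alpha subunit of the first factor, had a signal of 2808 ± 281 on the tumor-draining array and 2455 ± 245 on the normal array for its brightest probe, a log2 difference of 0.26. That is under the spread between probes of 1 gene, and 57.7% of all genes had a lower difference. Its 2 dimmer probes had differences of 1.13 (93.7 ± 9.5 on the tumor-draining array against 44.6 ± 4.8 on the normal array) and, for the dimmest, of 0.76 (28.2 ± 3.3 on the tumor-draining array against 17.4 ± 2.4 on the normal array). All 3 were positive, and with normexp background correction these dimmer probes were within 2-fold, at 0.68 and 0.26. The brightest probe lies on chromosome 12 at 75047819 to 75047878 and is named through a RefSeq transcript, while both dimmer probes are named through cDNA clones. The probe with the difference of 1.13, at 75027538 to 75027597, has its positions listed in descending order, opposite to the other 2 Hif1a probes. The Egln and Bnip3 probes also run in descending order, and their promoters are on the minus strand. The Hif1a promoter is on the plus strand. By this order the 1.13 probe lies opposite to the Hif1a strand, so its value is not taken as agreement between Hif1a probes. The brightest Hif1a probe passed 2-fold, at 1.08, when scaled to the spike-ins, and was at 0.08 after loess.

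The gap between Hif1a and Epas1 does not depend on a scaling that shifts all probes alike. Hif1a had a difference 2.62 higher than Epas1 on the log2 scale, that is, the ratio of Hif1a to Epas1 signal was 6.13-fold larger on the tumor-draining array. Over the 11 settings this gap ran from 2.59 to 3.08. The upper end came only from averaging over probes, which takes in the Hif1a probe listed in the opposite order.

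The probes of Arnt, which encodes the beta subunit shared by both factors, disagreed. The brightest had a signal of 796 ± 80 on the tumor-draining array and 1195 ± 120 on the normal array, a difference of -0.52. The other 2 had signals of 346 ± 35 and 222 ± 22 on the tumor-draining array, against 213 ± 21 and 149 ± 15 on the normal array, with differences of 0.76 and 0.64. The 3 probes lie on chromosome 3, the brightest at 95301081 to 95301140 and the others at 95278469 to 95278528 and 95296147 to 95296206, in mm9. Their mean was 0.29 with an SD of 0.71, and the brightest probe turned to 0.30 when scaled to the spike-ins, so no direction is given for Arnt.

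**Figure D2:**
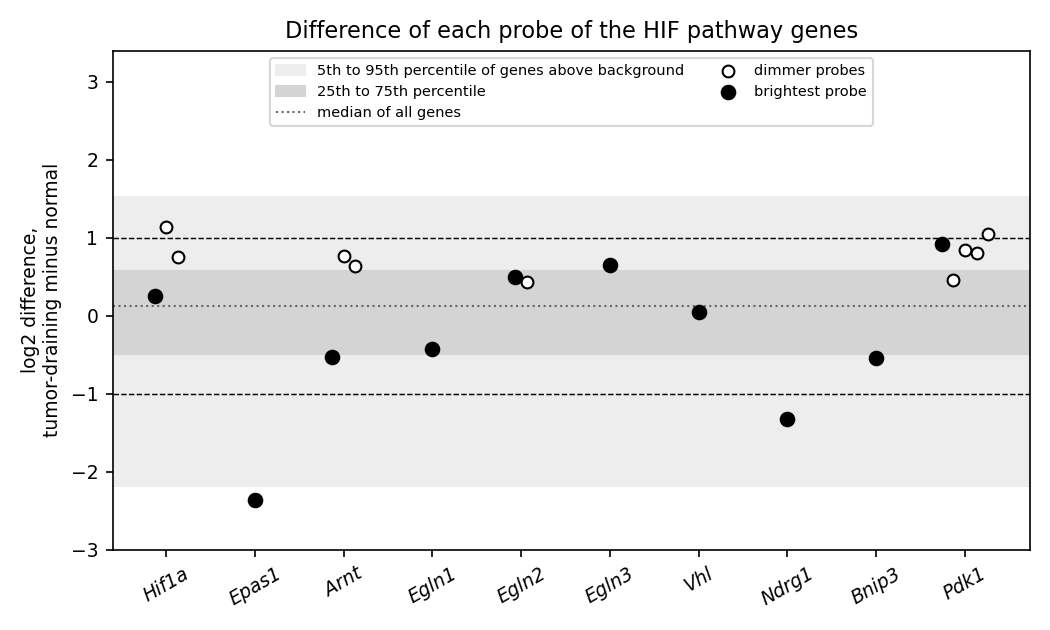
Log2 difference, tumor-draining minus normal, of every probe by gene, with filled circles for the brightest probe, open circles for dimmer ones, grey bands for the spread of all 22152 genes above background and dashed lines at 2-fold. Epas1 (-2.36) lies below the 5th percentile of all genes (-2.18), the Arnt probes lie on both sides of 0, and all 5 Pdk1 probes lie above it.

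The oxygen-sensing hydroxylases were within 2-fold, with Egln1 on one side of 0 and Egln2 and Egln3 on the other. Egln1, the enzyme that sets alpha subunit levels in most cells, had a signal of 1872 ± 187 on the tumor-draining array and 2628 ± 263 on the normal array, a difference of -0.43. Egln2 had signals of 8463 ± 846 and 1007 ± 101 for its 2 probes on the tumor-draining array, against 6239 ± 624 and 781 ± 78 on the normal array. Its differences were 0.50 and 0.43, and after loess normalization the brightest probe was at 0.14. Egln3, which is itself induced by hypoxia-inducible factors, had a low signal of 80.6 ± 8.3 on the tumor-draining array and 53.3 ± 5.6 on the normal array, a difference of 0.66, or of 0.38 with normexp background correction. The difference of Egln3 exceeded that of Egln1 by 1.08 (0.82 to 1.17 over 10 settings). With spike-in scaling Egln1 turned to 0.39, and Egln2 and Egln3 were 2.50-fold and 2.79-fold higher.

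Vhl, the substrate receptor of the ubiquitin ligase, differed least of the 10 genes. Its signal was 878 ± 88 on the tumor-draining array and 890 ± 89 on the normal array, a difference of 0.04 that was -0.11 after loess normalization and 0.86 when scaled to the spike-ins. Its probe covers bases 113581566 to 113581625 of chromosome 6 in mm9.

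The 3 target genes went in different directions. Ndrg1, a stress-induced gene of epithelia and of myelinating Schwann cells, had a signal of 4330 ± 433 on the tumor-draining array and 11280 ± 1128 on the normal array. It was 2.50-fold lower (difference -1.32), and 87.5% of all genes had a higher difference. When scaled to the spike-ins it was within 2-fold, at -0.50. Its single probe covers bases 66760903 to 66760962 of chromosome 15 in mm9.

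Bnip3, which encodes a mitochondrial protein that promotes mitophagy, had a signal of 924 ± 92 on the tumor-draining array and 1398 ± 140 on the normal array. Its difference of -0.54 was within 2-fold and turned to 0.28 when scaled to the spike-ins. Pdk1, the kinase that holds pyruvate dehydrogenase inactive, was the highest of the 10 genes, at 343 ± 34 on the tumor-draining array and 189 ± 19 on the normal array (difference 0.92). All 5 Pdk1 probes had a positive difference, from 0.46 to 1.05, or from 0.28 to 0.69 with normexp background correction. The dimmest, with a signal of 23.6 ± 3.0 on the tumor-draining array and 11.8 ± 2.1 on the normal array, was the only one past 2-fold, and with normexp it was at 0.29. The difference of Pdk1 exceeded that of Bnip3 by 1.46 (1.21 to 1.48 over 10 settings) and that of Ndrg1 by 2.24 (1.99 to 2.41).

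**Figure D3:**
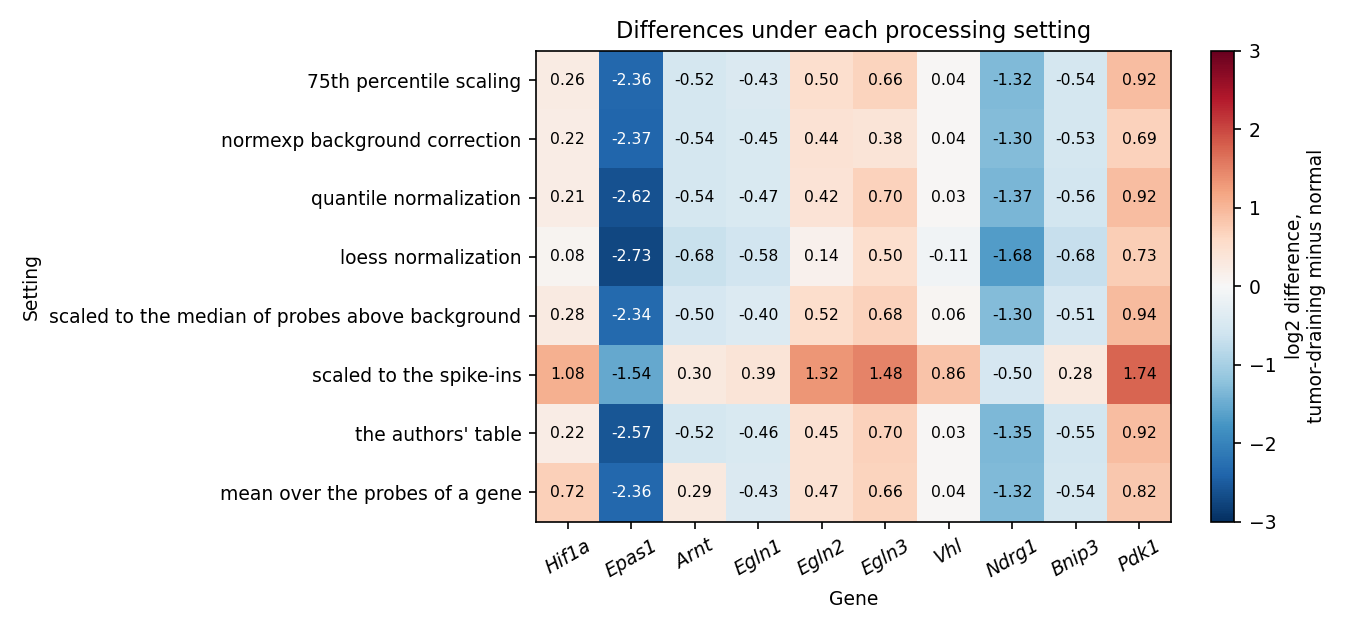
Log2 difference, tumor-draining minus normal, of each of the 10 genes (columns) under 8 processing settings (rows), from blue for lower to red for higher. Epas1 stays negative throughout, from -2.73 to -1.54, while scaling to the spike-ins moves Arnt, Egln1 and Bnip3 above 0 and Ndrg1 to -0.50.

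Paralogs of these genes did not share 1 direction, though most were negative on the main scaling. Of 11 paralogs on the arrays 10 were above background on both, of which 4 (40%, against 15.9% of all genes) were called lower and 0 were called higher (11.1% of all genes), with a median difference of -0.65. Only 2 of these 10 had a positive difference, against 56.4% of all genes. In the Ndrg family, Ndrg4 (-2.60) and Ndrg2 (-1.78) were lower, as was Ndrg1, while the probes of Ndrg3 ran from 0.70, the brightest, to 1.71. Ndrg4 had signals of 95.4 on the tumor-draining array and 602 on the normal array. Among the pyruvate dehydrogenase kinases, Pdk2 was 2.43-fold lower (129 on the tumor-draining array against 328 on the normal array), against differences of 0.37 for Pdk3, -0.45 for Pdk4 and 0.92 for Pdk1.

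Bnip3l, the mitophagy receptor related to Bnip3, was at -0.35. P4htm, a membrane-bound prolyl hydroxylase, was 2.35-fold lower on its brightest probe and at -0.09 on its other. Hif3a, a further alpha subunit, had low signals of 23.0 on the tumor-draining array and 43.2 on the normal array, a difference of -0.85. Arntl, a beta subunit relative of the circadian clock, was at -0.27 with probes up to 1.13, and Arnt2 was not well above background on either array. Spike-in scaling left 1 of the 10 paralogs called lower (8.07% of all genes) and gave 2 called higher (46.8% of all genes).

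Partners and regulators of the factors were mostly within 2-fold. Of 15 genes, all above background, 3 (20%, against 11.1% of all genes) were called higher and 0 were called lower (15.9% of all genes), with a median difference of 0.33. Siah2, a ubiquitin ligase that degrades prolyl hydroxylases, had signals of 3568 on the tumor-draining array and 1415 on the normal array (2.63-fold higher). Hif1an, the asparagine hydroxylase that blocks coactivator binding, had signals of 113 on the tumor-draining array and 44.7 on the normal array (2.63-fold higher, its other probe at 0.46). Ep300, a coactivator, had signals of 438 on the tumor-draining array and 214 on the normal array (2.13-fold higher, probes from 0.60). The lowest were Cited2, which competes with the alpha subunits for that coactivator (-0.54), and Elob and Siah1a (both -0.03). Under spike-in scaling 10 of the 15 were called higher (46.8% of all genes) and 0 lower (8.07% of all genes).

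Target genes outside glycolysis were split. Of 28 genes, 26 were above background on both arrays, of which 10 (38.5%, against 15.9% of all genes) were called lower and 2 (7.69%, against 11.1% of all genes) higher, with a median difference of -0.37. The lowest were Adm, a vasodilator peptide (314 on the tumor-draining array and 2171 on the normal array, 6.62-fold lower), and Edn1, the vasoconstrictor endothelin (48.0 on the tumor-draining array and 326 on the normal array, 6.50-fold lower). Vegfa, the vascular growth factor, followed with 422 on the tumor-draining array and 2790 on the normal array (6.33-fold lower). All 4 Vegfa probes were lower, from -2.83 to -2.16. The highest were Ankrd37 (747 on the tumor-draining array and 208 on the normal array, 3.75-fold higher) and Cxcr4, a chemokine receptor that leukocytes carry (3127 on the tumor-draining array and 1343 on the normal array, 2.43-fold higher). Car9, a carbonic anhydrase, came next at 76.0 on the tumor-draining array and 45.9 on the normal array, a difference of 0.79 that its other probe did not show (0.0098). Car12 and Epo, chosen after their values were seen, had bounds of at least 1.85-fold and 1.74-fold higher on the tumor-draining array, since neither was well above background on the normal one. Their signals were very low. Car12 was at 13.7 on the tumor-draining array against 5.95 on the normal array, and Epo at 12.9 against 4.77. The bounds take no account of spot error. After scaling to the spike-ins, 7 of the 26 were called lower (8.07% of all genes) and 9 higher (46.8% of all genes).

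Glycolytic target genes were mostly within 2-fold. All 18 were above background, 15 (83.3%, against 56.4% of all genes) had a positive difference, 2 (11.1%, as of all genes) were called higher and 1 (5.56%, against 15.9% of all genes) was called lower, with a median difference of 0.53. Pfkl, the liver-type phosphofructokinase, was 3.16-fold higher on its brightest probe and at 0.64 on its other, Slc16a3, a lactate exporter, was 2.39-fold higher, and Eno1, an enolase, was at 0.99. Hk2, an inducible hexokinase, was 2.45-fold lower, with signals of 201 on the tumor-draining array and 513 on the normal array, and Pfkfb3 and Tpi1 followed at -0.84 and -0.04. The median was 0.41 above that of all genes, but 0.19 above it with loess, 0.17 with quantile normalization and 0.18 by the authors' deposited table. Scaling to the spike-ins gave 14 of the 18 as higher (46.8% of all genes) and 0 as lower (8.07% of all genes).

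**Figure D4:**
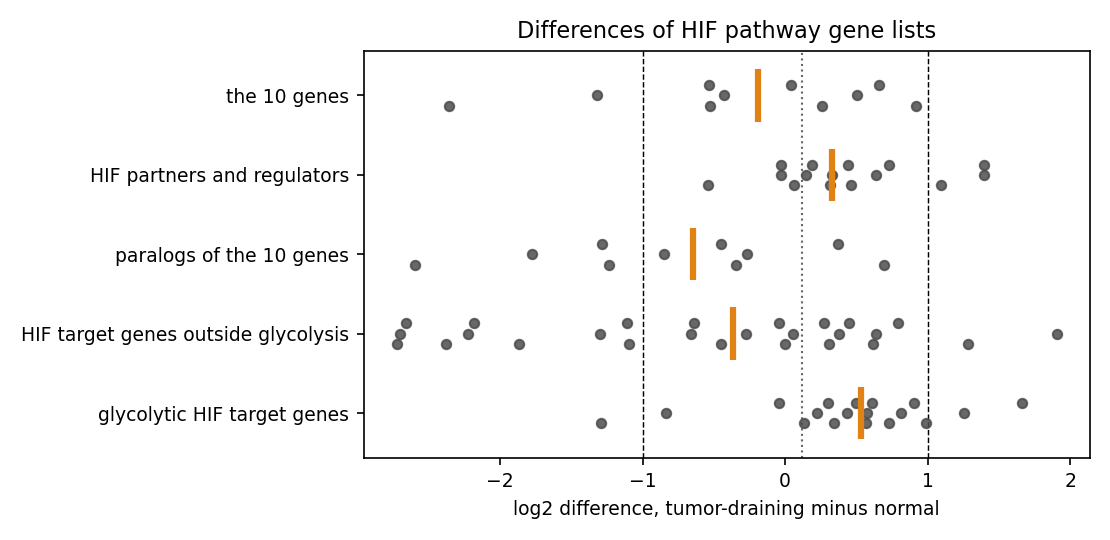
Log2 difference, tumor-draining minus normal, of each gene above background on both arrays (points) and the median (orange bar) for the 10 genes and 4 related lists, with dashed lines at 2-fold and a dotted line at the median of all genes (0.12). Targets outside glycolysis run from -2.73 to 1.91, while glycolytic targets sit mostly right of 0 with a median of 0.53.

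Cell type markers differed between the arrays in both directions. Over all genes, 15.9% were called lower and 11.1% higher. The 10 blood endothelial markers were all called lower (median -2.98), with a summed signal of 5473 on the tumor-draining array and 44645 on the normal array, among them Egfl7 (-2.98), Kdr (-2.98) and Pecam1 (-1.17). Epas1 lay inside their range, with 9 of the 10 lower than it. It also lay inside the ranges of other marker lists. Lower than Epas1 were 2 of 10 reticular, 2 of 6 lymphatic endothelial and 4 of 7 pericyte and smooth muscle markers. The same held for 3 of 8 Schwann cell and 2 of 4 erythroid markers. Of 10 fibroblastic reticular markers 9 were called lower (median -1.86, summed signal 111349 on the tumor-draining array and 281228 on the normal array), among them Dcn (-1.21) and Pdpn (-1.96), with Col3a1 at -0.85 (probes down to -2.42). All 6 lymphatic endothelial markers (median -2.33, with Ccl21a at -2.31 and Lyve1 at -2.06) and 6 of 7 pericyte and smooth muscle markers (median -2.71, with Kcnj8 at -3.06 and Acta2 at -0.99, its probes up to 0.14) were called lower as well. After scaling to the spike-ins, 9 of the 10 blood endothelial, 5 of the 10 reticular, 5 of the 6 lymphatic endothelial and 5 of the 7 mural markers were called lower. Over all genes, 8.07% were called lower on that scaling.

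Among 8 markers of Schwann cells, 5 (62.5%, against 15.9% of all genes) were called lower and 1 (12.5%, against 11.1% of all genes) higher. Their median was -1.77, with a summed signal of 10607 on the tumor-draining array and 11359 on the normal array. The brightest, Egr2 (0.17) and Mbp (1.52, its other probe at -0.84), are also active in leukocytes. The remaining marker not called lower was Sox10, at -0.15, with signals of 106 on the tumor-draining array and 123 on the normal array. Ndrg1 lay above 5 of the 8 and below 3 of them. It also lay inside the ranges of other marker lists. Lower than Ndrg1 were 7 of 10 reticular, 9 of 10 blood endothelial and 5 of 6 lymphatic endothelial markers. The same held for 6 of 7 mural and 2 of 4 erythroid markers. Epithelial markers had a median of 0.35, with Krt14 4.76-fold higher and Krt18 at 0.24. Ndrg1 was below all 7.

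All 8 pan-leukocyte markers (median 1.89) and all 8 T cell markers (median 2.47), and 6 of 8 B cell markers (median 1.58), were called higher, against 11.1% of all genes. The summed pan-leukocyte signal was 109036 on the tumor-draining array and 30247 on the normal array. Ptprc, the gene of the antigen excluded by the sort, had signals of 17432 on the tumor-draining array and 3702 on the normal array, so RNA of this gene was measured on both arrays despite the sort. Of 10 myeloid markers 1 (10%, against 11.1% of all genes) was called higher (median 0.43). Of 6 erythroid markers 4 were above background on the pair of arrays and 3 of those (75%, against 15.9% of all genes) were called lower. Their median was -1.99, with Hba-a1 at -1.21 and Hbb-b1 at -3.04. With spike-in scaling 8 of 10 myeloid, 6 of 7 epithelial and all 8 B cell markers were called higher, against 46.8% of all genes. So were all pan-leukocyte and T cell markers. On the same scaling 4 of 8 Schwann cell and 2 of 4 erythroid markers were called lower, against 8.07% of all genes. No marker of the endothelial, reticular, mural, Schwann, epithelial or leukocyte lists was below background on either array. The part of these cell types in the differences of Epas1, Ndrg1, Pdk1 and the other genes was not tested, and in a bulk sample fewer cells of a type and less RNA per cell cannot be told apart.

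**Figure D5:**
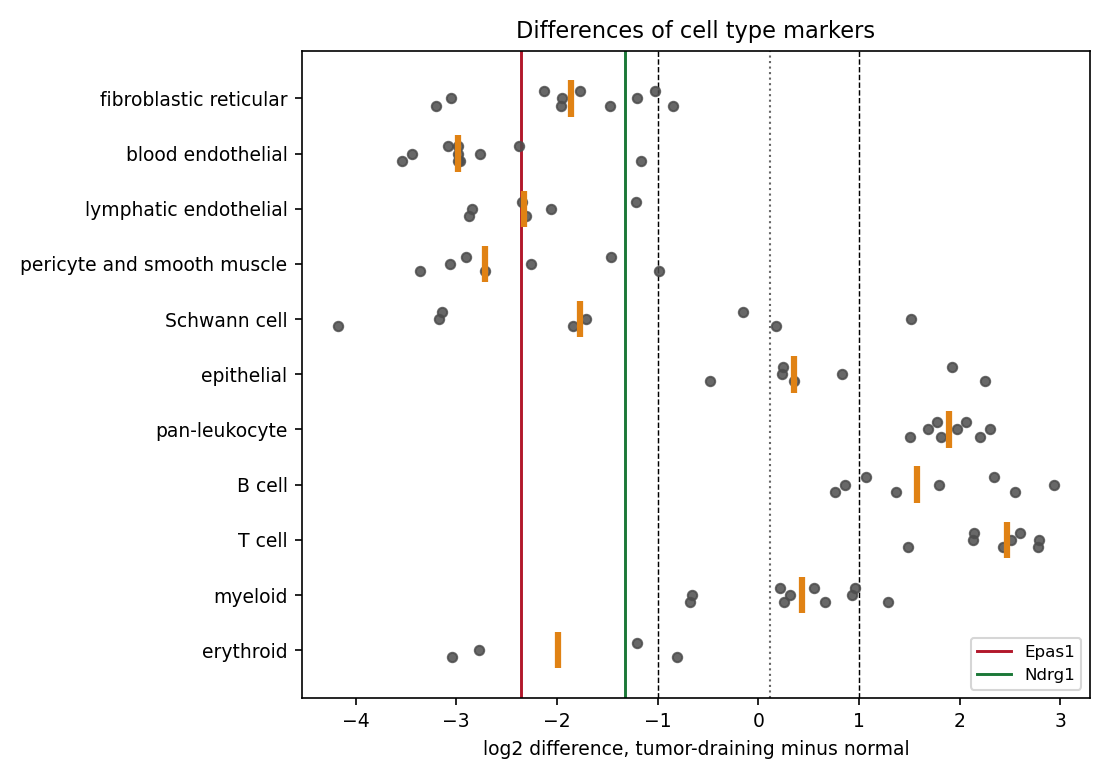
Log2 difference, tumor-draining minus normal, of cell type markers above background on both arrays (points) with list medians (orange bars), and vertical lines at Epas1 (red, -2.36) and Ndrg1 (green, -1.32). Endothelial, reticular and mural markers lie mostly left of the dashed 2-fold line, as do both genes, and leukocyte markers lie mostly right of the other one.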

How the data were processed

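RNA of sorted lymph node cells was amplified with Cy3 labeling for 1 array per group, per the labels' protocols. The authors deposited scanner files of linear spot intensity, background-subtracted by Feature Extraction 12.0.3.1 (protocol GE1_1200_Jun14, mm9 positions) per the file headers, while the submitters' processing notes name version 10.7 and limma. Their deposited table of log2 values, with column medians of 4.86 (tumor-draining) and 4.85 (normal), correlated with the log2 signal of the same array (r = 0.9999 for both) and was an alternative only. The steps behind it stay unknown, it shows no centering by gene, and one-color values have no ratio direction.

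Each array's log2 processed signal was reduced by its 75th percentile over 59305 non-control spots (358 for the tumor-draining array, 374 for the normal array). Control and outlier spots were left out, repeated spots were averaged by probe, and each gene was given by its brightest probe. Above background means that 50% or more of the spots have the software's well-above-background mark. Probes were renamed through RefSeq where possible (32992 by accession, 10224 by symbol, 520 by synonym), while the 10 genes were taken by the name in the files. Of a pathway list, the 3 highest and 3 lowest genes are named, with all paralogs. Of a marker list, the 2 brightest are named, with Ptprc, Pdpn and Pecam1. Sox10 was added after its value was seen. The genes and lists were chosen with earlier results of these data known. The number of arrays limits the precision. The choice of a gene's brightest probe, the averaging over probes and the 2-fold counts were tested on simulated data, and the other steps were not. Where 1 array was not above background, a fold is a bound taken against that array's lowest signal above background, or the probe's own signal if higher. Work was done in Python 3.11.15 (numpy 2.4.6, pandas 2.3.3) and R 4.3.3 (limma 3.58.1). The 10 alternatives included normexp with an offset of 50, quantile and loess (span 0.3) normalization, and scaling to 6 spike-in probes with signals under 60000.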

Additional observations from a re-analysis of the deposited data

How the results depend on the processing

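With 1 array per group no array could be left out. No paired analysis was possible because each group has 1 sample. Apart from scaling to the spike-ins, every alternative called Epas1 and Ndrg1 lower and 0 of the 10 genes higher. Epas1 and Ndrg1 have 1 bright probe each, so averaging over probes and the filters on signal could only return their main values. Scaled to the spike-ins, 1 was lower (Epas1) and 4 were higher (Hif1a, Egln2, Egln3 and Pdk1), against 10357 higher and 1788 lower of all genes, where the main scaling gave 2453 and 3532. Counts over all genes were 1373 higher (6.2%) and 2421 lower (10.9%) with normexp, against 11.1% and 15.9% in the main scaling. Without a background filter they were 4138 (11.2%) and 5344 (14.4%) of 37008 genes. Among 11076 brighter genes they were 1098 (9.91%) and 1598 (14.4%), a filter that Egln3 and Pdk1 did not pass. A value was taken as moved where it shifted by more than the spread between probes of 1 gene (0.27). Relative to all genes, the paralogs shifted by -0.77, or by -0.45 both with normexp and among brighter genes, and targets outside glycolysis by -0.49, or by -0.19 with all probes of each gene averaged. The cause was not tested. The shift of partners and regulators, 0.21, was -0.015 after loess. The mean over probes gave 0.29 for Arnt and 0.72 for Hif1a. That Hif1a mean includes the probe whose positions run opposite to those of the other 2 and to the strand of the Hif1a promoter.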
